A study of Mus musculus with 30 samples.

Results

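The MYC, MAX and MXD family of transcription factor genes was measured by nuclear RNA-seq in mouse embryonic stem (ES) cells depleted of SRCAP, the catalytic subunit of the chromatin remodelling complex that exchanges histone H2A for H2A.Z. The members were taken by name, with earlier results of these data known. They were Myc, Mycn, Mycl, Max, Mxi1, Mxd3, Mxd4, Mnt, Mga and Mlx, which are 10 of the 55401 genes in the 4 count tables. The 30 libraries formed 15 conditions with 2 replicates each, and the methods describe replicates as cells cultured and treated independently. In the text, the first of a pair of values belongs to replicate 1 and the second to replicate 2. With 2 libraries per condition, groups often lie apart without overlap even where a gene does not differ. The share of all genes that did so is not given for single comparisons, so that a lack of overlap is a description only. SYAT cells derive from 1 homozygous clone of the parental line CGR8, in which YPet-AID was fused to the C-terminus of SRCAP. The receptor OsTir1 was then expressed from an EF1a promoter, so that the auxin IAA (indole-3-acetic acid) at 500 µM induced degradation of SRCAP. From the transduced cells, those without YPet signal after IAA were sorted. All SYAT cells were kept in auxinole, an inhibitor of Tir1, until IAA was added, and control SYAT cells stayed in it. The time course in SYAT cells had controls and cells with 2, 4, 6 and 8 h of IAA (10 libraries), and CGR8 cells without the degron received IAA for 4 h or none (4 libraries). SYAT cells with and without 1 h of IAA were also sorted by DNA content and a mitotic degron reporter into early G1 (EG1) and late G1 (LG1) phase (8 libraries). wtSRCAP and cdSRCAP cells are SYAT cells, 1 clone each, that expressed wild-type or catalytically dead SRCAP fused to mCherry after 24 h of doxycycline at 1 µg/mL, were sorted for mCherry and were measured with and without 4 h of IAA (8 libraries). Clone and construct cannot be told apart in a comparison of the wtSRCAP with the cdSRCAP line. According to the methods, cells were routinely cultured in serum with LIF, CHIR99021 and PD184352, and were moved to serum with LIF before the experiments.

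Proteins of this family bind the E-box CACGTG as dimers that share the partner MAX. MYC, MYCN and MYCL activate transcription of growth and ribosome biogenesis genes with MAX, while the MXD proteins, MXI1 and MNT pair with MAX and recruit SIN3 corepressors, and MGA brings MAX into the polycomb complex PRC1.6. MLX is the partner of a parallel branch of the network and also dimerizes with MNT and some MXD proteins. In ES cells MYC and MYCN support self-renewal, and MGA with MAX represses germ cell genes.

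The family can bind promoters of its own members, so RefSeq promoter windows (GRCm38.p6, 250 bases before to 50 bases after each start) were searched for CACGTG, which is its own reverse complement and therefore reads the same on both strands. Windows were at hand for 9 members, Myc having no entry, and 4 of the 9 held the letters once. Of all genes with a RefSeq promoter, 2187 of 27025 (8.09%) held them in at least 1 window. The stretch around each match is printed 5′ to 3′ on the strand of the gene, with the E-box in capitals, because these 4 genes are the members whose own promoter carries the letters that the family reads. The positions, counted from the start site, were -219 to -214 in Mxd4, -123 to -118 in Mnt, -40 to -35 in Mlx and -3 to 2 in Max.
Mxd4 (chr5:34187874-34187960, minus strand): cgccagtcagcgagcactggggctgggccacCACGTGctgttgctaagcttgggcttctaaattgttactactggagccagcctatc
Mnt (chr11:74830751-74830856, plus strand): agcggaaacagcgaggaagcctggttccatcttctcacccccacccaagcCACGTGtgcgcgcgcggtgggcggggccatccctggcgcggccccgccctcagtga
Mlx (chr11:101087200-101087292, plus strand): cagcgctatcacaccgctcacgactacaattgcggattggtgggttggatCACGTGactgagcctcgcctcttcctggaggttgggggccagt
Max (chr12:76962246-76962301, minus strand): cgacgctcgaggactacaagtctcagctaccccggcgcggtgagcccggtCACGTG
The start that RefSeq gives Max lies upstream of the GENCODE gene. A match is a description of the letters and not a site of binding, and no binding was measured in the count tables.

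Exon columns summed to 45617992 to 60214521 counts per library in the CGR8 table, 17540823 to 22873893 in the SYAT time course, 19740778 to 26672402 in the sorted cells and 12236493 to 26369773 in wtSRCAP and cdSRCAP cells. All 10 members passed the filter on low counts in the exon columns of each table. All 8 pluripotency markers, among them Pou5f1, Sox2 and Nanog, were above 0 in every library, and their summed level was 1538 to 4265 CPM (counts scaled to the library size), against 5.29 to 48.4 CPM for 6 fibroblast and 2.48 to 14.0 CPM for 6 endoderm markers. The sum was 296.4 to 1632 CPM for 7 epiblast and mesoderm markers and 98.0 to 399.9 CPM for 4 neuroectoderm markers. In bulk libraries, fewer cells that express a gene and less RNA per cell cannot be told apart. The intron columns of the SYAT time course and of EG1 also held exonic reads, since 36.2 to 48.2% and 35.4 to 42.5% of genes with a single exon and at least 20 exon counts had intron counts there, against less than 0.1% in the other libraries. The intron values of those libraries are therefore not a separate readout of transcription. Strand setting in counting was not given in the sources used here, and reads of Mxi1, Mxd3, Mxd4 and Mlx may be shared with antisense neighbours (AC133451.2 and Gm10197, Prelid1, Gm42846, and Psmc3ip), and those of Max with the overlapping Gm47218.

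Per length, Mycn had the highest exon level of the 10 genes in each of the 15 conditions. On the RPKM scale (counts scaled to exon length and library size), control SYAT cells had 191.6 ± 1.43 for Mycn (SD, n = 2, as for all values of this kind), 36.1 ± 0.914 for Myc and 5.88 ± 1.07 for Mycl, the member first found in lung cancer. The common partner Max had 19.1 ± 0.127 and the parallel partner Mlx 17.1 ± 0.501. Among the repressors, Mga had 28.0 ± 3.73 and Mnt 16.7 ± 0.285, while Mxd3 (2.42 ± 0.278), Mxi1 (1.97 ± 0.227) and Mxd4 (0.918 ± 0.204) were the 3 lowest. Neighbours in this order did not overlap between their 2 replicates, except Mlx and Mnt, whose libraries did. Thus, the activators lay between rank 1 (Mycn) and rank 7 (Mycl) of the family, and Mxd3, Mxi1 and Mxd4 were at its lower end. Over all conditions Myc ranked between 2 and 5, and Mycl ranked 7 or 8. The lowest level in a single library was 0.149 RPKM for Mxd4, and the highest was 286.1 RPKM for Mycn. The ratio of Mycn to Myc per length was 5.38 and 5.24 in control SYAT cells, 3.98 and 4.80 after 6 h of IAA and 3.63 and 3.34 after 8 h. In CGR8 cells, which lack the degron, it was also lower with IAA, at 4.54 and 3.97 without it and 3.57 and 3.37 after 4 h.

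**Figure D1:**
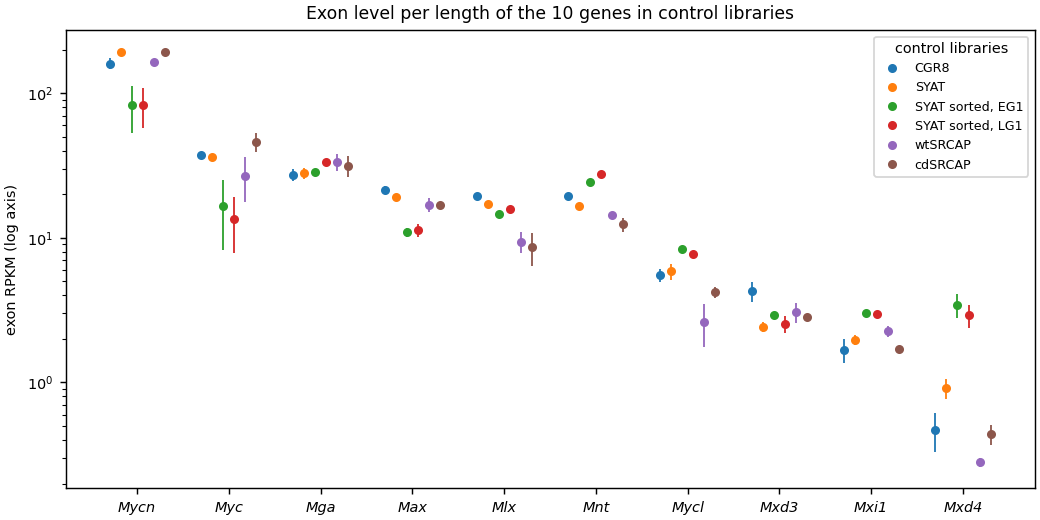
Exon level per length (RPKM, log axis) of the 10 genes in the control libraries of each line, with points at the mean of 2 replicates and lines from the lower to the higher replicate. Mycn is highest in each line, the sorted EG1 and LG1 controls have lower Mycn and Myc and wide ranges between their replicates, and Mxd3, Mxi1 and Mxd4 are the 3 lowest in control SYAT cells, Mxd4 at 0.918 RPKM.

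Degradation of SRCAP over 8 h was compared with the 2 control libraries of the time course, which all 4 time points share. In normalized counts, which were scaled by TMM within the table and are not per length, Myc had 1968 and 2040.0 in the controls, 2126 and 2422 at 2 h, 2358 and 2481 at 4 h, 2631 and 3309 at 6 h, and 2974 and 2877 at 8 h. Both libraries of each time point had more Myc than both controls. Mycn, the most abundant member, had 12830.2 and 12966 in the controls, 12809.7 and 13064 at 2 h, 13654 and 12841 at 4 h, 12689 and 19264 at 6 h, and 13079 and 11638 at 8 h. Replicate 2 at 6 h stood apart for Mycn, and the other libraries stayed near the controls. The 6 h replicates also differed over all genes, with a median absolute log2 gap of 0.430, against 0.217 in the controls and 0.317 at 8 h. The 6 h gap of Mycn was 0.602, larger than that of 64.3% of the genes. Mycl had 548 and 423 in the controls, 676 and 504 at 2 h, 675 and 528 at 4 h, 641 and 834 at 6 h, and 743 and 505 at 8 h. Its libraries overlapped with the controls at 2, 4 and 8 h and did not at 6 h.

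Max, the common partner, had 1396 and 1409.5 normalized counts in the controls, 1447 and 1568 at 2 h, 1461 and 1537 at 4 h, 1519 and 2113 at 6 h, and 1609 and 1705 at 8 h. Both libraries of each time point were above the controls, with the highest value in the library of 6 h replicate 2. The gap between the 6 h replicates of Max was larger than that of 54.1% of the genes. Mlx had 713 and 684 in the controls, 595 and 572 at 2 h, 570.4 and 591 at 4 h, 564 and 469 at 6 h, and 638 and 551 at 8 h, all below both controls. Max lay above and Mlx below the controls at each time point.

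Among the repressors, Mnt, the widely expressed repressor that antagonizes MYC, had 1559.7 and 1598 normalized counts in the controls, 1941 and 1845 at 2 h, 1677 and 1647 at 4 h, 1781 and 2013 at 6 h, and 1793 and 1665 at 8 h, each above the controls. Mga had 7955 and 9609 in the controls, 8008 and 9702 at 2 h, 7864 and 9439.8 at 4 h, 7674 and 6796 at 6 h, and 6991 and 8989.6 at 8 h. Mga was below both controls only at 6 h. Mxi1 had 252 and 297 in the controls, 285 and 289 at 2 h, 249.98 and 287 at 4 h, 270.3 and 251 at 6 h, and 264 and 284 at 8 h. Mxd3, the MXD protein of proliferating cells, had 108 and 127 in the controls and between 96.9 and 174 after IAA. Mxd4, expressed in cells that leave the cycle, had 184 and 134 in the controls, 216 and 148 at 2 h, 183 and 129 at 4 h, 159 and 113 at 6 h, and 136 and 97.4 at 8 h. Replicate 1 was above replicate 2 for Mxd4 in each of the 5 conditions, and the time points overlapped with the controls.

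**Figure D2:**
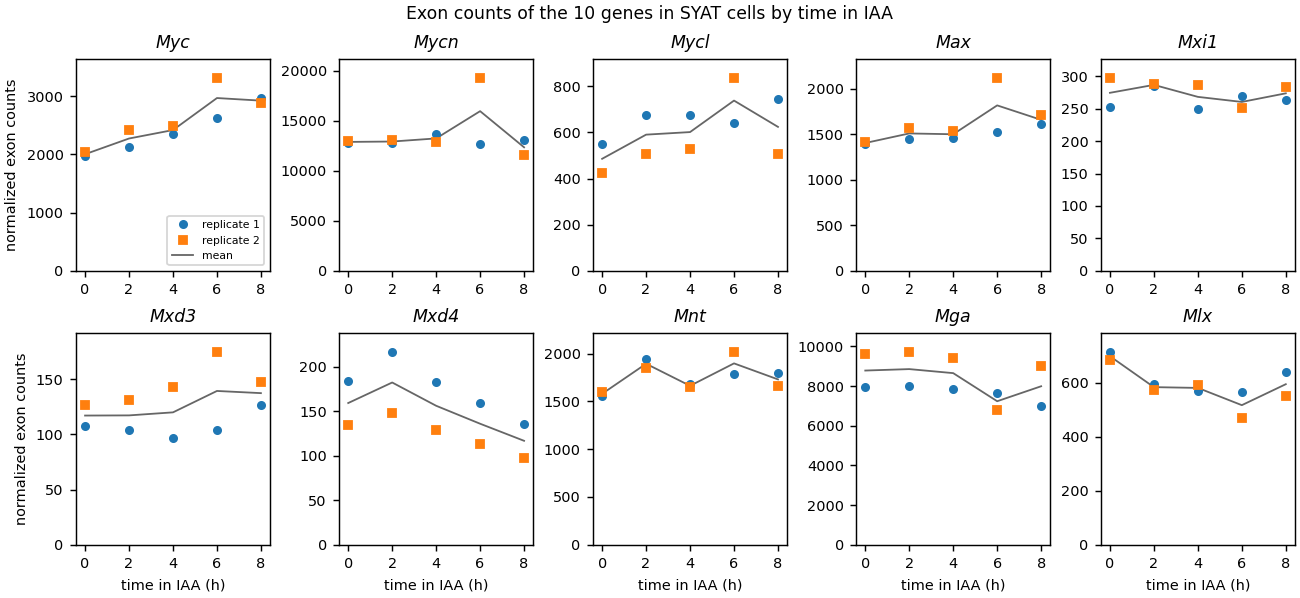
Normalized exon counts (y axes, from 0) of the 10 genes in SYAT cells against hours of IAA (x axes), with replicate 1 as circles, replicate 2 as squares and a line through the mean of both. Myc lies above its controls of 1968 and 2040.0 at each time point, and Mlx lies below its controls of 713 and 684. Replicate 2 at 6 h stands apart for Mycn (19264) and Max (2113), where replicates differed more over all genes than in the controls.

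None of the 10 genes was called in an exon column of the time course by edgeR's quasi-likelihood test (adjusted p under 0.05 and an absolute log2 fold change over 0.5). This held with all libraries, the filter on low counts and no term for the replicate. The share of all 19205 genes tested that was called was 0% at 2 h, 0% at 4 h, 0.0677% at 6 h, 0.00521% at 8 h and 0% for 8 h against 2 h. At an unadjusted p under 0.05 the counts were 0 of 10 at 2 h (3.92% of all genes), 0 at 4 h (9.09%), 4 at 6 h (16.1%), 1 at 8 h (13.6%) and 1 for 8 h against 2 h (5.23%). DESeq2's Wald test called 1 member, Myc, at 6 h (4.75% of the genes it gave an adjusted p) and at 8 h (3.02%). At 6 h the log2 fold change of Myc was 0.57 (SE 0.139, adjusted p = 0.105), that of Mycl 0.60 (SE 0.2504, adjusted p = 0.276), that of Max 0.37 (SE 0.159, adjusted p = 0.289) and that of Mlx -0.43 (SE 0.155, adjusted p = 0.217). At 8 h only Myc had an unadjusted p under 0.05, with a log2 fold change of 0.55 (SE 0.139, adjusted p = 0.130) against the controls and 0.36 (SE 0.139, adjusted p = 0.897) against 2 h. The difference in Myc was thus in the same direction in both replicates at 6 and 8 h, and did not pass the threshold over all genes in these edgeR fits.

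The values at 6 h depended on which of the 2 replicates was kept. Without 6 h replicate 2 the log2 fold change of Max was 0.12 (adjusted p = 0.726) and that of Myc 0.40 (adjusted p = 0.204). Without 6 h replicate 1, in which the lone library is assumed to vary like the other groups, Myc (0.73, adjusted p = 0.00509), Max (0.60, adjusted p = 0.00891), Mycn (0.58, adjusted p = 0.00926) and Mlx (-0.57, adjusted p = 0.0312) were called, with 3163 of 20497 genes (15.4%) called in all. At 8 h the log2 fold change of Myc stayed between 0.51 and 0.57 when any 1 of the 4 libraries was left out.

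In the intron columns, 9 members passed the filter, since Mxd3 was at 0 in 9 of the 10 libraries. No member was called at 6 h (0.0136% of all genes) or 8 h (0.00679%), and at an unadjusted p under 0.05 there were 2 at 6 h (14.5%) and 1 at 8 h (13.5%). Myc had intron log2 fold changes of 0.53 (SE 0.163, adjusted p = 0.215) at 6 h and 0.47 (SE 0.163, adjusted p = 0.278) at 8 h, and Mlx had -0.48 (SE 0.170, adjusted p = 0.260) at 6 h. These columns hold exonic reads, and after the exon counts had been taken off, an alternative chosen after seeing the data, the intron value of Myc at 8 h was -0.25. Values of that kind rest on few counts, 38 and 48 for Myc in the controls.

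**Figure D3:**
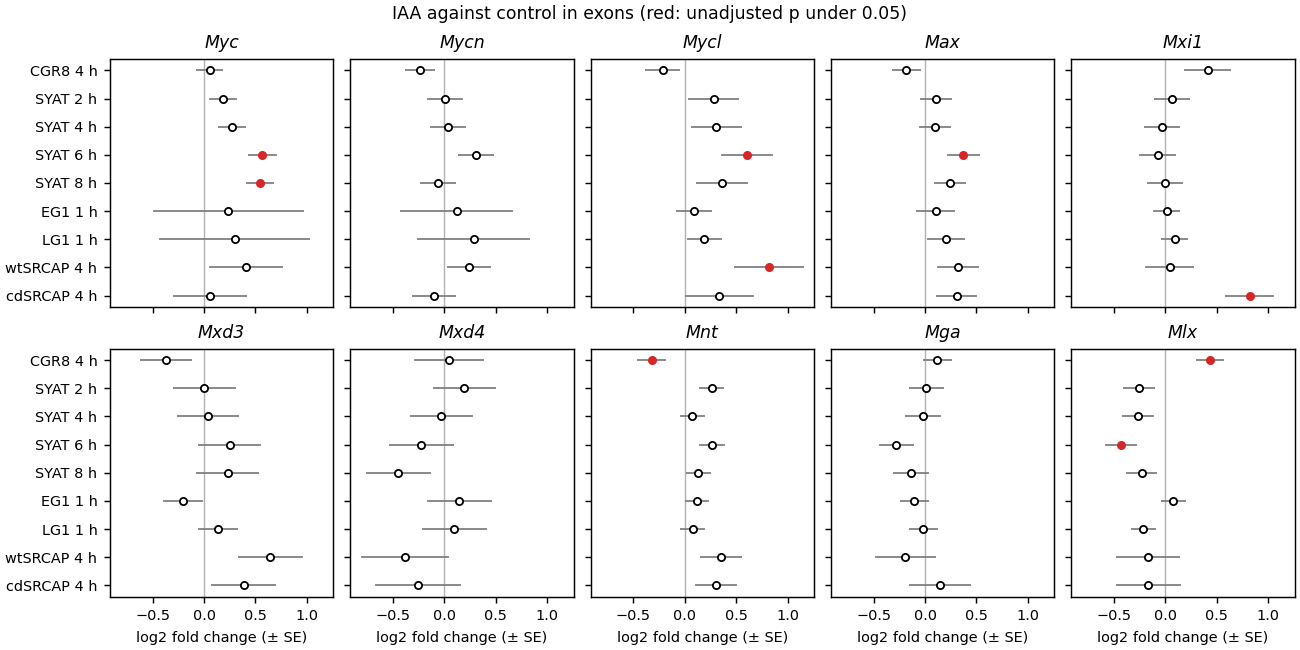
Log2 fold change in exons (x axes, ± SE) of the 10 genes after IAA against the control of the same line, for each of the 9 comparisons of IAA with control. Red points have an unadjusted p under 0.05, as Myc at 6 h (0.57) and 8 h (0.55) and Mxi1 in cdSRCAP cells (0.82). No point passed the threshold for a call in the edgeR fits shown, which had the filter on low counts and no replicate block.

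CGR8 cells lack the degron and show what 4 h of IAA does without degradation of SRCAP. Mlx had 2118 and 1990.1 normalized counts without IAA and 2772 and 2781 with it, and Mnt had 4833 and 4666 without IAA and 4083 and 3509 with it. In neither gene did the groups overlap, with Mlx higher and Mnt lower after IAA. The log2 fold change was 0.44 (SE 0.138, adjusted p = 0.540) for Mlx and -0.32 (SE 0.139, adjusted p = 0.544) for Mnt, so both had an unadjusted p under 0.05 and neither was called. These were 2 of 10 members, where 9.16% of all genes had such a p and 0.00988% were called. Among the activators, Myc had 5507 and 5291 without IAA and 5905 and 5307 with it, Mycn had 30329 and 25461 against 25542 and 21684, and Mycl had 1291 and 1060.3 against 1049 and 978. Myc and Mycn overlapped between the groups, and Mycl was lower in both libraries with IAA. Max had 4362 and 3788 without IAA and 3733 and 3435 with it, without overlap. The remaining repressors were Mxi1 (488 and 714, then 727 and 873), Mxd3 (619 and 450.2, then 486 and 338), Mxd4 (147 and 275, then 188 and 248) and Mga (20053 and 24114, then 22537 and 25351). Of these, Mxi1 was higher in both libraries with IAA, and the other 3 overlapped. Without control replicate 2, Mxi1 was called in exons (log2 fold change 0.72, adjusted p = 0.0314), with 2361 of 21680 genes (10.9%) called in all.

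The intron columns of CGR8 cells held few exonic reads and give a separate readout. Of the 9 members tested, 0 were called (0.022% of all genes) and 1 had an unadjusted p under 0.05 (5.24%). Mnt had 559.8 and 588 intron counts without IAA and 471 and 333 with it, lower in both libraries, with a log2 fold change of -0.52 (SE 0.209, adjusted p = 0.925). Without IAA replicate 2 that value was -0.29 and without IAA replicate 1 it was -0.78. The intron column of Mxd4 did not pass the filter, with 41.9 and 8.50 counts in the controls and 0 in both libraries with IAA. Mlx, which was higher in exons, had 86.8 and 128 intron counts without IAA and 124 and 119.7 with it, with overlap.

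In cells sorted in EG1 and LG1, Myc and Mycn differed far more between the replicates than between the conditions. Myc had 510.4 and 1543 normalized exon counts in EG1 controls, 593 and 1822 in EG1 after 1 h of IAA, 486 and 1187 in LG1 controls and 575 and 1482 in LG1 after IAA. Replicate 2 was above replicate 1 by 1.29 to 1.62 on the log2 scale, a gap larger than that of 94.7 to 98.8% of the genes. Mycn had 3989.6 and 8481 in EG1 controls, 4243 and 9289 in EG1 after IAA, 4289 and 8119 in LG1 controls and 4694 and 10411 in LG1 after IAA, a gap of 0.92 to 1.15. The summed level of the epiblast and mesoderm markers also differed within conditions, from 360.6 to 746.3 CPM in EG1 controls, and its part in the gap was not tested. Mycl had 747 and 798, 773 and 869.7, 668 and 744, and 679.9 and 933 in the same order of conditions. Max had 833 and 959, 863 and 1058, 829.7 and 1015, and 922 and 1202, also with replicate 2 higher in each condition.

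The repressors showed smaller gaps between replicates, apart from Mxd4. Mga had 10005 and 9846 in EG1 controls, 8461 and 9992 in EG1 after IAA, 11621 and 11867 in LG1 controls and 11900.2 and 11309.7 in LG1 after IAA, and so was higher in each LG1 library than in each EG1 library. Mnt had 2525 and 2618, 2765 and 2816, 2909 and 2892, and 3027 and 3092 in that order, and was likewise higher in each LG1 library. Mxd4 had 788 and 539, 913 and 556, 666 and 457, and 709.8 and 492, with replicate 1 higher throughout. Mxi1 stayed between 454 and 516 in the 8 libraries, and Mxd3 between 119 and 159. Mlx had 648 and 681 in EG1 controls, 702 and 700.5 in EG1 after IAA, 725 and 714 in LG1 controls and 639.7 and 600.3 in LG1 after IAA. It was above its controls in EG1 and below them in LG1.

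**Figure D4:**
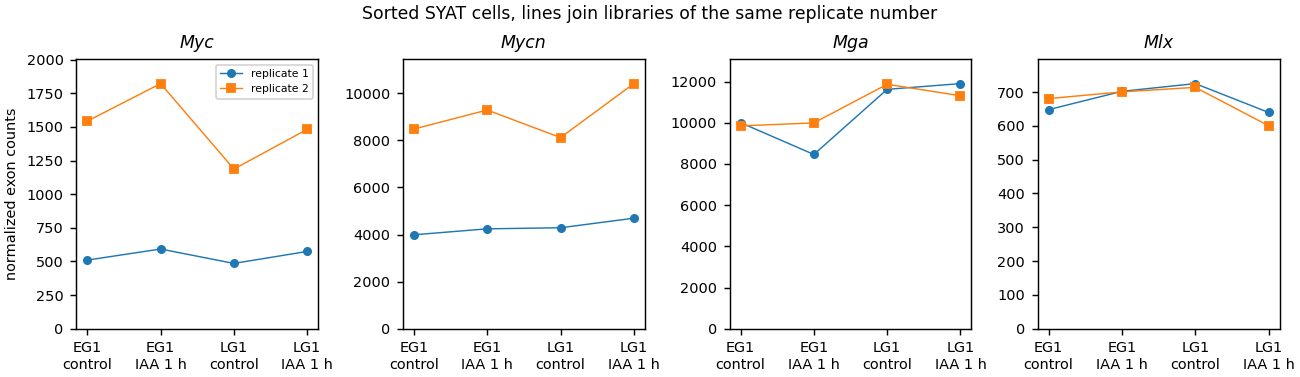
Normalized exon counts (y axes, from 0) of Myc, Mycn, Mga and Mlx in EG1 and LG1 with and without 1 h of IAA, with lines joining libraries of the same replicate number. Replicate 2 is far above replicate 1 for Myc (1543 against 510.4 in EG1 controls) and Mycn, whereas the 4 LG1 libraries are above the 4 EG1 libraries for Mga.

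Without a term for the replicate, 0 of the 10 genes were called in the sorted cells, and 0 had an unadjusted p under 0.05 by edgeR's test in the exon columns. For all genes, the called share was 0% in each of the 5 comparisons, and the share with an unadjusted p under 0.05 was 1.22% for IAA in EG1, 1.02% for IAA in LG1, 1.44% for LG1 against EG1 in control cells, 2.31% for LG1 against EG1 after IAA and 0.699% for the difference of the responses. In this table the replicate numbers paired the libraries, and with the replicate as a block some members passed the thresholds the methods give for sorted cells (unadjusted p under 0.05 and an absolute log2 fold change over 0.25). After IAA in LG1, 1 of 10 members passed them (4.2% of all genes), which was Myc at 0.29 (SE 0.0870, adjusted p = 0.485 with the block). In EG1 no member passed them (6.04% of all genes), and Myc had 0.23 (SE 0.0827, adjusted p = 0.451 with the block). In both phases each replicate had more Myc with IAA than its own control.

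Between LG1 and EG1 in control cells, 1 member passed these thresholds (7.31% of all genes), Myc, at -0.25 (SE 0.0857, adjusted p = 0.196 with the block). After IAA, 2 members passed them (9.7%), Mga at 0.33 (SE 0.0713, adjusted p = 0.0131) and Mxd4 at -0.28 (SE 0.0840, adjusted p = 0.0981), both with the block. Mga, which was higher in LG1 by 0.24 in control cells (SE 0.0710, adjusted p = 0.109 with the block), was the member with the clearest difference between phases. For the difference of the IAA response, 1 member passed them (3.76%), Mlx at -0.29 (SE 0.114, adjusted p = 0.999 with the block). The intron columns of the phases cannot be compared with each other, because those of EG1 held exonic reads. Within LG1, Myc had 22.1 and 61.7 intron counts without IAA and 41.4 and 99.6 with it, and Mycn had 79.0 and 156, then 96.0 and 283. Both genes were higher after IAA in each replicate, with log2 fold changes of 0.79 (SE 0.188, adjusted p = 0.450 with the block) for Myc and 0.59 (SE 0.161, adjusted p = 0.466 with the block) for Mycn. Mxi1 (343 and 344, then 429.9 and 442) and Mxd4 (152 and 84.4, then 182 and 127) also passed the unadjusted threshold there with the block, so that 4 of 10 members did so in all (9.02% of all genes), against 0 without it. This fit also held the EG1 intron columns, so its scaling, spread and block were estimated from both kinds of columns. Deviations of same-numbered EG1 and LG1 libraries correlated at 0.141 to 0.214 in introns.

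The wtSRCAP and cdSRCAP lines ask which of the responses need SRCAP as a protein and which need its catalytic activity. Mxi1, a repressor, was higher with IAA in cdSRCAP cells. Its normalized exon counts were 261 and 310.5 in wtSRCAP controls, 298 and 291 in wtSRCAP cells after IAA, 226 and 203 in cdSRCAP controls, and 404 and 352 in cdSRCAP cells after IAA. The 2 cdSRCAP libraries with IAA were the highest of the 8, and those of wtSRCAP overlapped with their controls. The log2 fold change in cdSRCAP cells was 0.82 (SE 0.237, adjusted p = 0.729), and 0.82 with the replicate as a block (SE 0.212, adjusted p = 0.0455), which called it. In introns, Mxi1 had 221 and 219 counts in wtSRCAP controls, 261 and 257 in wtSRCAP cells after IAA, 226 and 259.9 in cdSRCAP controls, and 391 and 452 in cdSRCAP cells after IAA. In introns both lines were thus higher with IAA without overlap. Outside these lines, Mxi1 was also higher with IAA without overlap in CGR8 exons and in LG1. It overlapped with its controls in CGR8 introns, in EG1 and in the exons of the time course. The intron log2 fold change was 0.79 (SE 0.174, adjusted p = 0.119) in cdSRCAP cells, and DESeq2's Wald test (0.83, adjusted p = 0.0383, 2.1% of the genes it gave an adjusted p called) and edgeR with the block (0.79, adjusted p = 0.0305, 2.52% of all genes called) called it. In introns, however, same-numbered libraries of cdSRCAP controls and cdSRCAP cells after IAA did not deviate together (correlation 0.0760). Pairing by number, which the block assumes, is therefore not established for this intron comparison. The difference between the responses of the lines was 0.78 in exons (SE 0.334, adjusted p = 1.00) and 0.56 in introns (SE 0.248, adjusted p = 1.00). Exon and intron columns thus gave values of similar size for Mxi1. With the filter on low counts, neither was called by edgeR without the block. Without that filter, edgeR called the intron value without the block (adjusted p = 0.0316).

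The activators varied more in wtSRCAP cells. Myc had 882 and 1802 exon counts in wtSRCAP controls, 1357 and 2201 after IAA, 1966 and 2665 in cdSRCAP controls, and 2176 and 2647 after IAA. Both cdSRCAP controls were above both wtSRCAP controls, and the 2 wtSRCAP controls differed from each other by 1.03 on the log2 scale. The log2 difference between the control lines was 0.79 (SE 0.361, adjusted p = 1.00) without and 0.84 (SE 0.163, adjusted p = 0.00747) with the block, so that Myc was called only with it. Mycn had 9438 and 10462, 13233 and 10248, 11513 and 11866, and 11423 and 10364 in the same order of conditions. Mycl had 129.7 and 260.4 in wtSRCAP controls, 292 and 397 after IAA, 338 and 285 in cdSRCAP controls, and 409.5 and 376 after IAA. It was higher with IAA in both lines without overlap, and in wtSRCAP cells the log2 fold change was 0.82 (SE 0.339, adjusted p = 0.666). That value rested on the wtSRCAP controls, since it was 0.40 without control replicate 1 and 1.42 without control replicate 2.

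Max had 993 and 1239 exon counts in wtSRCAP controls, 1438 and 1347 after IAA, 1085 and 1140.1 in cdSRCAP controls, and 1353 and 1399 after IAA, higher with IAA in both lines. Its intron counts were 550.0 and 497, 637 and 711, 519 and 641, and 693 and 728, with a log2 fold change of 0.37 (SE 0.160, adjusted p = 0.389) in wtSRCAP cells. Exons and introns of Max thus lay above the controls in each line. Mlx had 290.4 and 402, 274 and 341, 234 and 400.0, and 258 and 309, and overlapped between the conditions.

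Mnt had 1172 and 1290.4 exon counts in wtSRCAP controls, 1668 and 1481 after IAA, 1174 and 939 in cdSRCAP controls, and 1328 and 1285 after IAA. Its intron counts were 135 and 193 in wtSRCAP controls, 185 and 158 after IAA, 101 and 109 in cdSRCAP controls, and 113 and 112 after IAA, lower in each cdSRCAP library than in each wtSRCAP library. The intron log2 fold change of cdSRCAP against wtSRCAP cells was -0.64 in controls (SE 0.243, adjusted p = 0.603) and -0.60 after IAA (SE 0.244, adjusted p = 0.448). The control value was -0.36 without wtSRCAP control replicate 2. The intron value of Mxi1 after IAA was 0.71 in the same comparison (SE 0.176, adjusted p = 0.252). Pluripotency markers also differed between the lines, at 2528 to 2818 CPM in wtSRCAP and 3039 to 3981 CPM in cdSRCAP controls, and their part in these differences was not tested. The other repressors were Mga with 6098 to 10645 exon counts over the 8 libraries, Mxd3 with 113 to 253 and Mxd4 with 23.3 to 78.9.

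**Figure D5:**
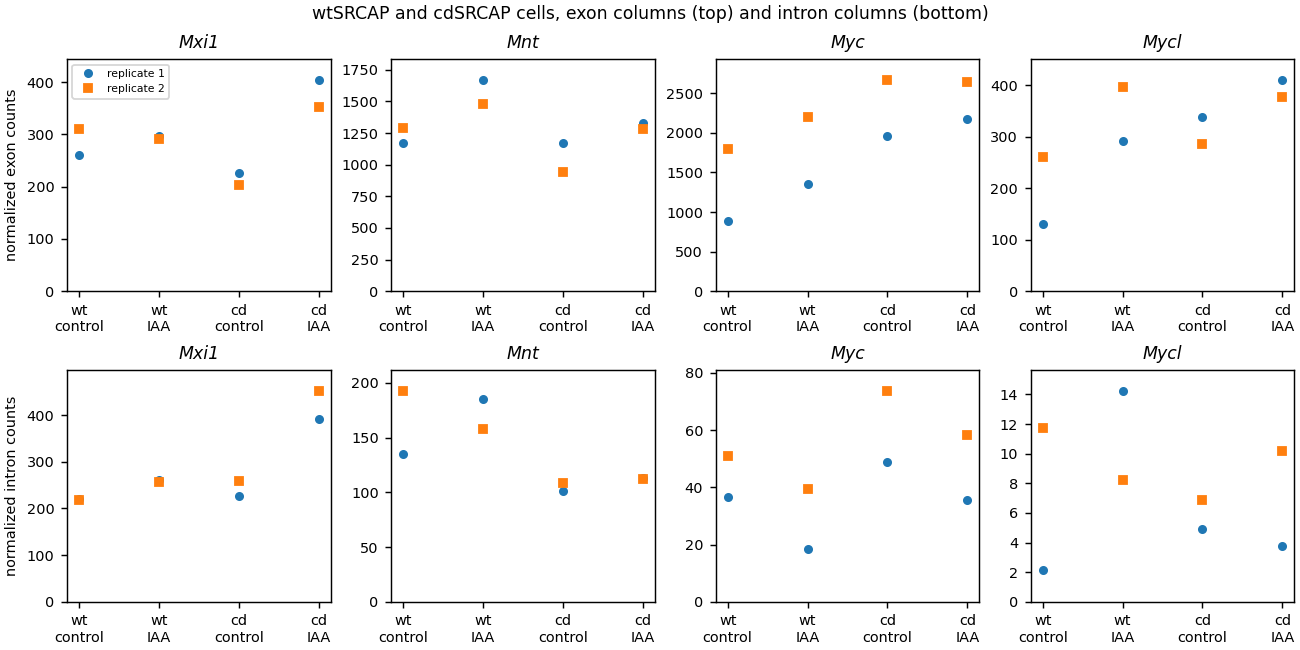
Normalized exon (top) and intron (bottom) counts (y axes, from 0) of Mxi1, Mnt, Myc and Mycl in wtSRCAP and cdSRCAP cells with and without 4 h of IAA, with replicate 1 as circles and replicate 2 as squares. Mxi1 is highest in both cdSRCAP libraries with IAA, in exons (404 and 352) and in introns (391 and 452), and the intron counts of Mnt are lower in cdSRCAP than in wtSRCAP cells.

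Without a term for the replicate and with the filter on low counts, no member was called by edgeR in the wtSRCAP and cdSRCAP table. In exons the called share of all genes was 0.00523% for IAA in wtSRCAP cells, 0% for IAA in cdSRCAP cells, 0% between the lines in controls, 0.00523% between them after IAA and 0% for the difference of the responses. At an unadjusted p under 0.05 the members were 1 (7.4% of all genes), 1 (5.64%), 0 (3.82%), 0 (5.03%) and 1 (0.785%) in that order. In introns the called shares were 0.299%, 0.236%, 0.102%, 0.0157% and 0%, and the members with an unadjusted p under 0.05 were 1 (12.4%), 1 (11.3%), 1 (7.07%), 2 (10.2%) and 1 (2.54%). Each count is out of 10 members. In the exon columns, same-numbered libraries deviated together in every pair of conditions (correlations of 0.2595 or more). With the replicate as a block, the members called in exons were 0 (3.2% of all genes), 1 (1.81%, Mxi1), 1 (0.91%, Myc), 0 (1.41%) and 0 (0%) in the same order. In introns 1 of the pairs of conditions, cdSRCAP controls with cdSRCAP cells after IAA, had a correlation of 0.0760. Pairing by number is thus not established there.

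Genes that act with the family or are known to be driven by it were counted at 6 h of IAA in SYAT cells, where Myc had its largest difference within the time course. None of them was called. Of 25 genes known to be induced by MYC, 6 had higher and 0 lower exon counts at an unadjusted p under 0.05, where 7.93% of all genes were higher and 8.21% lower. Their median log2 fold change was 0.21 against 0.0096 for all genes, and 22 of 25 were above 0. Ccnd2, which encodes cyclin D2, had 458 and 269 in the controls and 797 and 782 at 6 h (log2 fold change 1.12, SE 0.326, adjusted p = 0.152). Nop56, of the ribosomal RNA methylation machinery, had 8406 and 9069 in the controls and 10753 and 12482 at 6 h (0.41, SE 0.128, adjusted p = 0.172). Both were higher in each 6 h library. Rrs1, a ribosome assembly gene, had 2525 and 2459 in the controls and 2796 and 5027 at 6 h (0.65, SE 0.218, adjusted p = 0.197), and Srm, the spermidine synthase gene, had 6377 and 6697, then 7406 and 9819 (0.40, SE 0.148, adjusted p = 0.232). In both, replicate 2 at 6 h was the higher one, as for Mycn and Max.

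The median of the induced genes was 0.07 at 2 h, 0.09 at 4 h and 0.10 at 8 h in SYAT cells, which share their controls, and -0.08 in CGR8 cells. It was 0.20 in wtSRCAP and 0.19 in cdSRCAP cells after IAA, whose differences were not tested against each other for the list. After 1 h of IAA it was 0.09 in EG1 and 0.08 in LG1. For cdSRCAP against wtSRCAP cells the median was -0.12 in controls (-0.017 for all genes), with 18 of 25 genes below 0. After IAA that median was -0.13 (0.025 for all genes), with 17 of 25 below 0. Of 7 genes known to be repressed by MYC, 1 was higher (7.93% of all genes) and 0 lower (8.21%) at 6 h, with a median of 0.18. The one was Gadd45a, a growth arrest gene, with 312 and 299 in the controls and 564 and 516 at 6 h (0.82, SE 0.169, adjusted p = 0.0724). The induced and the repressed genes were thus both mostly above 0 at 6 h.

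Of 15 partners and regulators of MYC, 1 was higher and 1 lower, with a median of 0.02. For this and the next lists, 7.93% of all genes were higher and 8.21% lower by the same rule. Aurka, a kinase that stabilizes MYCN, had 2423 and 2502 in the controls and 2827 and 3807 at 6 h (0.43, SE 0.153, adjusted p = 0.216). Kat5, the acetyltransferase TIP60 that MYC recruits, had 693 and 748 in the controls and 505 and 404 at 6 h (-0.66, SE 0.162, adjusted p = 0.104). Kat5 was lower in both libraries. Of 8 corepressor genes of MXD and MNT, 1 was higher, Sap30 of the SIN3 complex, with 1158 and 1242 in the controls and 1281 and 2784 at 6 h (0.76, SE 0.279, adjusted p = 0.225). Of 10 genes of PRC1.6, which MGA scaffolds, Pcgf6 was higher (1243 and 1309, then 1426 and 2187, 0.50, SE 0.187, adjusted p = 0.232) and Tfdp2, the E2F partner, lower (1360.1 and 1401, then 1036 and 939, -0.48, SE 0.127, adjusted p = 0.119). The medians were 0.12 for the corepressors and 0.0055 for PRC1.6. The other 3 members of the network gave none, and Mxd1, a repressor of differentiating cells, had 170 and 162 in the controls and 91.3 and 141 at 6 h.

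The genes whose exon level followed that of Myc and Mycn most closely over the 10 libraries of the time course were found among 9406 genes by Pearson's r of log2 CPM. For Myc they were Ddx39b, an RNA helicase gene (0.9785), B4galt1, a galactosyltransferase gene (0.9774), and Nop56 (0.9759). For Mycn they were Dut, the dUTPase gene (0.9888), Mgat2, a glycosyltransferase gene (0.9886), and Ndufb7, of mitochondrial complex I (0.9864). These values describe 10 libraries that share conditions and depth, and in which 6 h replicate 2 stood apart for Mycn.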

How the data were processed

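Nuclear RNA-seq counts of 30 libraries in 4 tables were used. According to the methods and the labels, the authors aligned reads to mm10 with STAR, counted them with featureCounts on GENCODE vM25 exons and on gene bodies without exons, and deposited whole-number counts per gene, without normalization, in an exon and an intron column per library. Deposited tables of the authors' comparisons (log2 fold changes and p-values from DESeq2) were not used. Symbols and exon lengths came from GENCODE vM21, which holds 54349 of the 55401 identifiers at the same version and 55141 when versions are dropped. Each table and column kind was fitted as a whole with edgeR 4.0.16 (R 4.3.3, glmQLFit and glmQLFTest, TMM, filterByExpr with minimum count 10 and total 15), with Benjamini-Hochberg adjustment over all genes tested. Contrasts stayed within a table. The script was tested on simulated counts. The fold change with its error is given where the unadjusted p was under 0.05 in the exon or intron column. Of each list, up to 4 genes with the smallest p at 6 h were eligible to be named, and for Myc and Mycn the 3 genes of highest correlation among those with a mean log2 CPM of at least 3. The members and the lists were chosen with earlier results of these data known. Same-numbered libraries deviated together in the sorted table (correlations of 0.141 or more between conditions) and in the exon columns of the wtSRCAP and cdSRCAP table (0.2595 or more), so that blocked values stand beside results there. Alternatives were DESeq2 1.42.0 (size factors and Wald test), no filter, the replicate block, only the conditions compared, and each library left out.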

Additional observations from a re-analysis of the deposited data

Results flagged for a closer look

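After 4 h of IAA, 3 members lay on opposite sides of their controls in CGR8 and SYAT exons, with every library of one line higher and every library of the other lower than its controls. The log2 fold change was -0.185 in CGR8 and 0.0957 in SYAT cells for Max, -0.323 and 0.0742 for Mnt, and 0.435 and -0.265 for Mlx. Of all 18368 genes tested in both tables, 8.04% lay on opposite sides in this way. In introns the same held for Myc (-0.377 in CGR8 and 0.231 in SYAT cells) and Mnt (-0.517 and 0.0708), and for 8.98% of all genes. The 2 lines are in tables counted separately, and the difference was not tested. The intron columns of SYAT cells also held exonic reads.

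After 1 h of IAA, Mlx had an exon log2 fold change of 0.0781 in EG1, where both libraries were above both controls, and -0.215 in LG1, where both were below, as held for 1.87% of all genes. The interaction in edgeR's quasi-likelihood test had an unadjusted p of 0.124, and 0.0191 with the replicate block (adjusted p = 0.999).

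The IAA response of Mxi1 was larger in cdSRCAP than in wtSRCAP cells by 0.779 in exons and 0.56 in introns on the log2 scale, with unadjusted interaction p of 0.0433 and 0.0491 and adjusted p of 1.00 in both by edgeR. In both columns both cdSRCAP libraries with IAA were above their controls. In introns the same held for the wtSRCAP libraries.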

How the results depend on the processing

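In the edgeR fits with the filter on low counts and no replicate block, few genes of any kind passed the adjusted threshold. With 2 replicates per condition, a p that misses it does not show that a gene did not differ. Counts of members past the thresholds were 0 in each comparison read and moved in 21 of 343 alternative counts. DESeq2's Wald test gave 1 for Myc at 6 h (adjusted p = 0.0298) and 8 h (adjusted p = 0.0470) in exons (647 and 445 genes called in all), and 1 for Mxi1 in cdSRCAP introns (adjusted p = 0.0383, 174 genes). Without the filter on low counts, Myc at 6 h (adjusted p = 0.0480, 885 of 35880 genes called in all) and Mxi1 in cdSRCAP introns (adjusted p = 0.0316, 344 of 20012 genes) were called, 1 each. With 1 library left out, the count ranged from 0 to 4 at 6 h in exons and from 0 to 1 in each of 5 others (6 h introns, CGR8 exons, CGR8 introns, and, at the thresholds for sorted cells, LG1 against EG1 after IAA in exons and IAA in LG1 introns). The library left out was 6 h replicate 1, CGR8 control replicate 2, EG1 IAA replicate 2 and LG1 IAA replicate 1. Over all alternatives, the adjusted p of Myc ranged from 0.00509 to 0.536 at 6 h and from 0.0393 to 0.6395 at 8 h in exons, and that of Mxi1 in cdSRCAP cells from 0.0455 to 1 in exons and from 0.0305 to 0.5945 in introns. Of 278 alternative values of single members, 5 changed direction. These were Mlx in CGR8 introns without control replicate 1 (-0.070, up to 0.49 with another library left out), Mycl in wtSRCAP introns without control replicate 1 (-0.103, up to 2.28), and, with exon counts subtracted from intron counts, Mycl at 6 h (-0.333), Myc at 8 h (-0.247) and Myc at 8 h against 2 h (-0.156), where few counts remained.

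The replicate block gave 1 member called in each of 5 comparisons outside the sorted cells: Myc at 6 h (adjusted p = 0.0332, 823 genes called in all) and 8 h (adjusted p = 0.0393, 634 genes) in exons, Mxi1 in cdSRCAP cells in exons (adjusted p = 0.0455, 345 genes) and introns (adjusted p = 0.0305), and Myc in cdSRCAP against wtSRCAP controls in exons (log2 fold change 0.84, adjusted p = 0.00747, 174 genes). In the time course the deviations of same-numbered libraries correlated at 0.267 to 0.589 in exons among the controls, 2, 4 and 8 h, but at -0.0359 to 0.0623 with 6 h, so that the numbers were not taken to pair these libraries. The correlation was also under 0.1 in CGR8 cells (0.0736 in exons and 0.0596 in introns). In the wtSRCAP and cdSRCAP introns it was under 0.1 in 1 pair of conditions, cdSRCAP controls with cdSRCAP cells after IAA (0.0760). All pairs passed in their exons (0.2595 or more). At the thresholds for sorted cells the block gave 1 in LG1 exons, 1 between phases in controls, 2 between phases after IAA, 1 for the difference of responses and 4 in LG1 introns, and it moved no other count.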
